A study of Sus scrofa with 2 samples.

Results

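Peaks of the transcription factor ZBTB16 at the 3′ ends of genes were taken from both deposited peak lists. They were all peaks that the authors' annotation placed in a 3′ UTR or in its class Downstream, which reaches from a gene's end to 3 kb beyond it. There were 198 such peaks among the 10273 of replicate 1 and 135 among the 7301 of replicate 2, or 333 of 17574 in all. The data were CUT&Tag libraries of wild-type pig (Sus scrofa) testis cells that the labels call immature spermatogonia. The 2 libraries, replicate 1 and replicate 2, formed 1 group, each made from 100000 cells, and no treatment or second genotype was compared. Whether they stem from different animals is not stated in the labels, so every p-value covers the spread between peaks of these libraries and nothing beyond them. Peaks were called per library, and an IgG control was not analysed here.

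ZBTB16, also known as PLZF, is a BTB domain and zinc finger repressor that binds DNA and is needed for the upkeep of spermatogonial stem cells. In CUT&Tag an antibody holds a transposase at a chromatin protein, and the enzyme cuts and tags the DNA around it, which is also easier to cut where chromatin is open. The 3′ UTR is the transcribed stretch behind the stop codon, and the DNA just past it is where the polymerase ends transcription. In a compact part of the genome this stretch can also lie close to the end or the start of a neighbouring gene.

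Among the strongest 3′-end peaks that appeared in both libraries were those at SDR42E2, MIP, SYP, SLC23A3 and STX4. Strength is given as the authors' fold enrichment, a ratio over the local background of the same library, and by the number of fragments at the summit, recovered from each peak's fold and p-value. At SDR42E2, a gene of the short-chain dehydrogenase family, the fold was 7.71 on 48 fragments in replicate 1 and 6.64 on 29 in replicate 2. This 3′ UTR peak on chromosome 3 (23990458 to 23991544) had its summits 1518 and 1480 bp before the end of the gene, and its fold of replicate 1 was the highest of all 3′-end peaks. At MIP, the aquaporin of lens fibre cells, the fold was 7.07 on 24 fragments and 6.94 on 21. That peak (chromosome 5, 21787257 to 21787841) was of class Downstream, 1455 and 1465 bp beyond the end. At SYP, which encodes the synaptic vesicle protein synaptophysin, a 3′ UTR peak on the X chromosome (43236348 to 43237160) had folds of 6.96 on 24 fragments and 5.61 on 18. At STX4, a syntaxin of the plasma membrane, the peak 1753 and 1678 bp past the end (chromosome 3, 17420193 to 17420770) had folds of 5.84 and 6.42. All of these peaks stood above the median of 3′-end peaks in both lists, which follows from their choice as the strongest in both.

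Near NHEJ1, a factor of DNA double-strand break repair, a 3′ UTR peak (chromosome 15, 121193242 to 121194400) had folds of 6.22 on 27 fragments and 6.70 on 26. NHEJ1 had the nearest gene start, but the summit lay inside SLC23A3, a transporter of the SLC23 family. No gene end was found within 3 kb there, and the nearest known one, of CNPPD1, lay 13423 and 13610 bp away. At VPS52, a subunit of the GARP tethering complex of the Golgi, a Downstream peak (chromosome 7, 29622697 to 29623844) had folds of 6.64 and 5.66. Its summits lay 792 and 928 bp past the end. At GRIK4, a kainate receptor subunit, a 3′ UTR peak (chromosome 9, 48094917 to 48095606) had 5.75 on 13 fragments and 5.56 on 10. At SH2D3A, an SH2 domain adaptor, a 3′ UTR peak (chromosome 2, 72404164 to 72404952) had 5.54 and 5.37. The end of TRIP10, an F-BAR protein, also lay within 3 kb there. The remaining 4 of the 12 strongest regions present in both lists lay at genes known only by number. LOC110259568 had folds of 6.59 and 6.72, LOC102161787 had 6.65 and 5.66, LOC106510393 had 6.94 and 5.28, and LOC106509726 had 5.77 and 6.38. In the last, the end of FAM120A, an RNA-binding protein, lay within 3 kb of the summit too.

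The peaks followed the gene ends as their class required. The class fixes most of this, so positions are given as a description. For 161 of the 333 peaks, the gene that the authors assigned was also the one with the nearest end. Over these, the median summit lay 221 bp beyond the end of the assigned transcript (95% interval of the median −35 to 566). Set against the nearest gene end of any gene, over all 333 peaks, the median was 92 bp beyond the end (−124 to 273). By library it was 136.5 bp in replicate 1 and −32 bp in replicate 2, so the median of replicate 2 lay before the end. For 3′ UTR peaks, set against the nearest gene end whichever gene it belonged to, the median was −789.5 bp in replicate 1 (quartiles −2206.75 and −116.25) and −1140 bp in replicate 2 (−2895 and −223.25), a minus sign standing for a summit before the end. Downstream peaks had medians of 1509.5 and 1749 bp, and the farthest summit lay 3441 bp past an end, since the class is measured from the edge of the peak. A gene end lay within 1 kb of the summit for 80 of 198 peaks in replicate 1 (40.4%, 95% Wilson interval 33.8 to 47.4) and 48 of 135 in replicate 2 (35.6%, 28.0 to 43.9). These intervals, like the others below, cover counting error only.

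**Figure D1:**
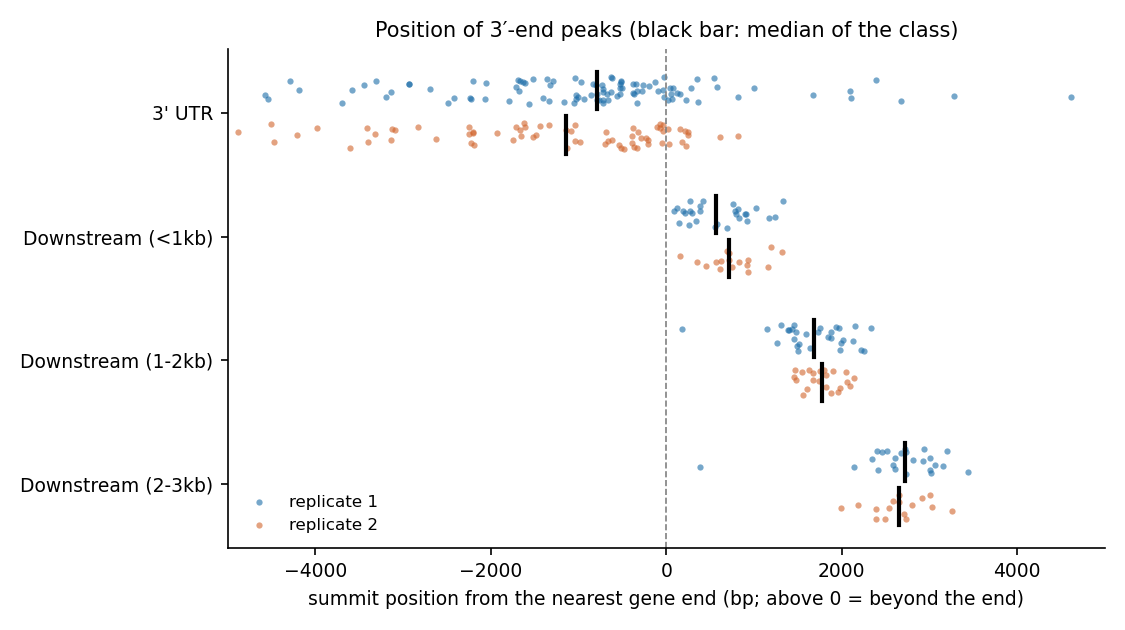
Each point is the summit of a 3′-end peak, placed by its distance in bp from the nearest gene end (above 0, beyond the end) and split by the authors' class and by library, with a black bar at the median of each class. The 3′ UTR summits of both libraries lie mostly before the end, with medians of −789.5 and −1140 bp, while Downstream summits lie beyond it; 25 peaks farther than 5000 bp from an end are not drawn.

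The gene whose start is nearest was often not the gene that ended at the peak. When overlapping 3′-end peaks of both lists were merged, they formed 263 regions, and in 136 of them the assigned gene did not have the nearest end. At STX4 the assigned gene was ZNF668, a zinc finger protein. At SYP it was PRICKLE3, and at SDR42E2 it was a tRNA gene. A gene end lay within 1 kb of a summit in 107 regions and between 1 and 3 kb away in 108. In the other 48 no gene end lay within 3 kb of a summit, and 39 of these were 3′ UTR peaks. The classes largely fix whether a summit lies inside a gene. Of the 196 peaks annotated as 3′ UTR, 179 had their summit inside the span of a gene in the RefSeq table for Sscrofa11.1, against 0 of the 137 Downstream peaks. At PLEKHA5, for instance, a 3′ UTR peak of replicate 2 with a fold of 4.45 on 8 fragments lay 151240 bp before the nearest end known for that gene.

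In 45 regions, ends of genes on opposite strands both lay within 3 kb of a summit. At RELA, the NF-kB subunit p65, and SIPA1, a RAP GTPase-activating protein, a Downstream peak on chromosome 2 (6604256 to 6605054) had folds of 5.92 on 29 fragments and 4.59 on 15. Where DCST2 and ZBTB7B end, the latter a BTB zinc finger regulator of T cell fate, a 3′ UTR peak had 4.88 on 19 fragments and 5.76 on 16. At SPHK2, a sphingosine kinase, and DBP, a PAR bZIP factor of the circadian clock, the folds were 3.43 and 3.50. At HSPB6, a small heat shock protein, and LIN37, a subunit of the DREAM complex, they were 3.24 and 2.82. Among such regions with a 3′-end peak in both lists, folds ran from 2.82 to 6.38. Peaks with ends of both strands nearby overlapped a peak of the other list in 18 of 34 cases in replicate 1 (52.9%, 36.7 to 68.5) and 17 of 27 in replicate 2 (63.0%, 44.2 to 78.5). Without such a pair it was 60 of 164 (36.6%, 29.6 to 44.2) and 59 of 108 (54.6%, 45.2 to 63.7). The intervals overlapped in both libraries, and the difference was not tested. Over all peaks of the lists the shares were 53.2% and 75.0%.

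A start of another gene rarely lay near these summits. The classes set much of this, since every peak up to 3 kb upstream of a start was listed as promoter. Only 6 of the 333 peaks (1.80%, 0.828 to 3.87), 3 in each library, had the start of a gene other than the one with the nearest end within 1 kb. They fell into 4 regions. At TSFM, a mitochondrial translation elongation factor, a 3′ UTR peak on chromosome 5 (23073181 to 23073840) lay with its summits 137 and 291 bp from the start, inside EEF1AKMT3, a lysine methyltransferase, with folds of 4.50 and 4.40. At LOC102160475, the summits lay 536 and 624 bp from the start, with folds of 4.08 and 5.05. They lay inside that gene, which was also the assigned one. Its start counted as another gene's only because the nearest known end was that of ALDH2, 15875 and 15787 bp away. At the end of DPAGT1, the first enzyme of N-glycan assembly, the start of LOC100522201 lay 527 bp from the summit of replicate 2 (fold 4.63). The peak of replicate 1 there (fold 5.42) was listed as a promoter. The fourth lay in a tRNA cluster on chromosome 12, with TRNAK-UUU-14 starting 938 bp from the summit and a fold of 3.27 in replicate 1.

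Counting the start of any named gene, including the gene's own, 10 of 198 peaks in replicate 1 (5.05%) and 6 of 135 in replicate 2 (4.44%) had one within 1 kb of the summit. Over all peaks of the lists it was 68.6% and 72.7%. This low share is set by the classes and is not a result: the authors listed every peak up to 3 kb upstream of a start as promoter, so no 3′-end peak could lie there. The nearest 3′-end peak on the upstream side of a start was 3156 bp away. No peak of either list had a named start nearer than the one assigned, so the authors' distance gives the full count by the edge of the peak. By that measure a start lay within 1 kb of 24 peaks, all downstream of it. In 15 of the 24 the assigned gene also had an end within 3 kb of the summit. These 15 included CLDN14, a tight junction claudin, with a fold of 5.61 in replicate 1. Also among them were HCRT, the orexin precursor, with 4.32 in replicate 1, and GLTPD2 with 5.78 in replicate 2. The other 9 included both peaks at ZNF219, a zinc finger protein (chromosome 7, 78029088 to 78029803), with folds of 6.30 on 35 fragments and 4.88 on 19. Their summits also lay inside TMEM253.

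All 6 peaks counted with another gene's start within 1 kb, including those at LOC102160475, overlapped a peak of the other list. Of the rest, 75 of 195 (38.5%) did so in replicate 1 and 73 of 132 (55.3%) in replicate 2. The difference did not pass Fisher's exact test (two-sided, Benjamini-Hochberg adjusted p = 0.0796 and 0.256). With 3 such peaks in a library no outcome could have passed, since the smallest exact p was 0.0597 and 0.0811.

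Taken over all, 78 of the 198 peaks of replicate 1 (39.4%, 32.9 to 46.3) overlapped a peak of replicate 2 by 1 bp or more, and 76 of the 135 of replicate 2 (56.3%, 47.9 to 64.4) overlapped one of replicate 1. Among all peaks of the lists the shares were 53.2% and 75.0%. Both 3′-end shares lay below that of their list, in which promoter peaks were the majority. Against exon, intron and distal intergenic peaks together, the classes outside promoters and UTRs, the 3′-end peaks overlapped more often in this pooled comparison. In replicate 1 the shares were 39.4% and 26.5% (odds ratio 1.80, two-sided Fisher's exact test, adjusted p = 0.000556), and in replicate 2 they were 56.3% and 45.9% (odds ratio 1.52, adjusted p = 0.0404). The pooled classes differed among themselves. Exon peaks lay at a median of 2590 and 1794 bp from the nearest start, closer than the 3′-end peaks at 9179 and 9098 bp. Exon peaks overlapped in 231 of 653 cases in replicate 1 (35.4%) and 265 of 415 in replicate 2 (63.9%), so the 3′-end share lay above that of exon peaks in replicate 1 and below it in replicate 2. Intron peaks had 22.6% and 39.4%, and distal intergenic peaks 25.3% and 41.9%. The single classes were not tested against the 3′-end peaks. The call in replicate 2 was lost under each of the 5 other settings tried, with odds ratios of 1.29 to 1.91. The call in replicate 1 was lost with 3′ UTR peaks alone (odds ratio 1.52, exact test adjusted p = 0.168). Neighbouring peaks are not independent, and both tests use the same pairs of lists.

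Downstream peaks overlapped in 37 of 82 cases in replicate 1 (45.1%, 34.8 to 55.9) and 34 of 55 in replicate 2 (61.8%, 48.6 to 73.5). For 3′ UTR peaks it was 41 of 116 (35.3%, 27.2 to 44.4) and 42 of 80 (52.5%, 41.7 to 63.1). Within the Downstream class, the peaks 1 to 2 kb past the end overlapped most often in both libraries, in 18 of 30 (60.0%, 42.3 to 75.4) and 16 of 22 cases (72.7%, 51.8 to 86.8). Those nearer than 1 kb did so in 12 of 28 and 10 of 17 cases, and those at 2 to 3 kb in 7 of 24 and 8 of 16. The intervals of these groups overlap within each library.

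Compared within quartiles of summit fragments over the whole list, the overlap of 3′-end peaks rose with height up to the third quartile. In replicate 1 it was 14.8% of 88 peaks with 7 to 12 fragments, 35.1% of 37 with 13 to 16, and 68.9% of 45 with 17 to 22. The exon, intron and distal intergenic peaks had 10.3%, 29.6% and 53.9% there. In replicate 2 it was 32.4% of 68 peaks in the lowest quartile (up to 11 fragments), 68.4% of 19 and 90.3% of 31, against 24.9%, 62.6% and 79.8%. Over all peaks of the list the shares were 17.9%, 42.3% and 68.5% in replicate 1 and 42.4%, 77.4% and 90.7% in replicate 2. The 3′-end peaks lay below these, except in the third quartile of replicate 1. In the highest quartile the order against the exon, intron and distal intergenic peaks turned. The 3′-end peaks overlapped in 21 of 28 cases in replicate 1 (75.0%, 56.6 to 87.3) and 13 of 17 in replicate 2 (76.5%, 52.7 to 90.4), and the other classes in 84.7% (79.7 to 88.7) and 95.7% (91.7 to 97.8). All peaks of the lists had 91.3% and 98.5% there. None of these quartile differences was tested.

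**Figure D2:**
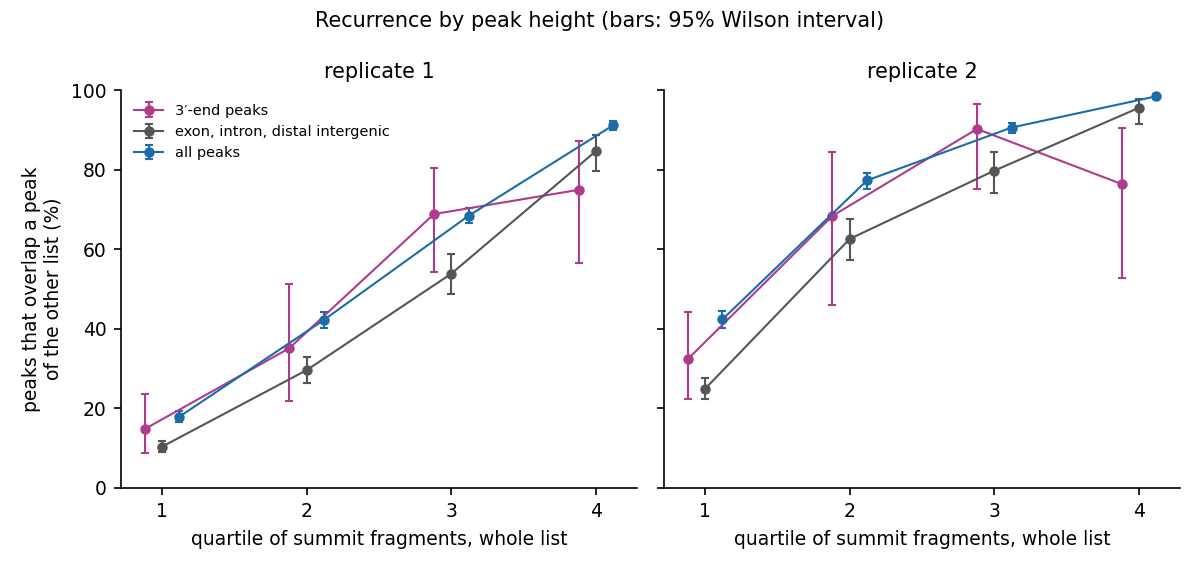
The percentage of peaks that overlapped a peak of the other list is drawn against the quartile of summit fragments in the whole list, for 3′-end peaks, for exon, intron and distal intergenic peaks together, and for all peaks; bars are 95% Wilson intervals. In the highest quartile the 3′-end peaks stand at 75.0% and 76.5%, below the 84.7% and 95.7% of the other classes, on 28 and 17 peaks.

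The 11 peaks of the highest quartile with no counterpart were looked at singly. They were chosen for that after their values were seen. In replicate 1, NECTIN2, a cell adhesion receptor, had a fold of 6.28 on 26 fragments over a background of 3.30 (95% Poisson interval of the count 17.0 to 38.1). SEMA6C, a transmembrane semaphorin, had 4.79 on 24 fragments and ADAMTSL4, a matrix protein, 4.94 on 27. LOC110261044 had 4.59 on 27 fragments. The other 3 had folds near the bottom of the list on a high background. LOC102162336 had 2.43 on 64 fragments over 25.7, MIR9816, on an unplaced scaffold, 2.52 on 64 over 24.8, and the peak past MIDN, next to CIRBP, 2.56 on 23 over 8.38. In replicate 2, GLTPD2 had 5.78 on 21 fragments, the peak past CCDC124 had 5.63 on 21, NBEAL2 had 4.78 on 20 and SOX12, a SOX family transcription factor, 4.48 on 21. The 8 peaks other than these 3 stood on backgrounds of 2.81 to 5.10 fragments.

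**Figure D3:**
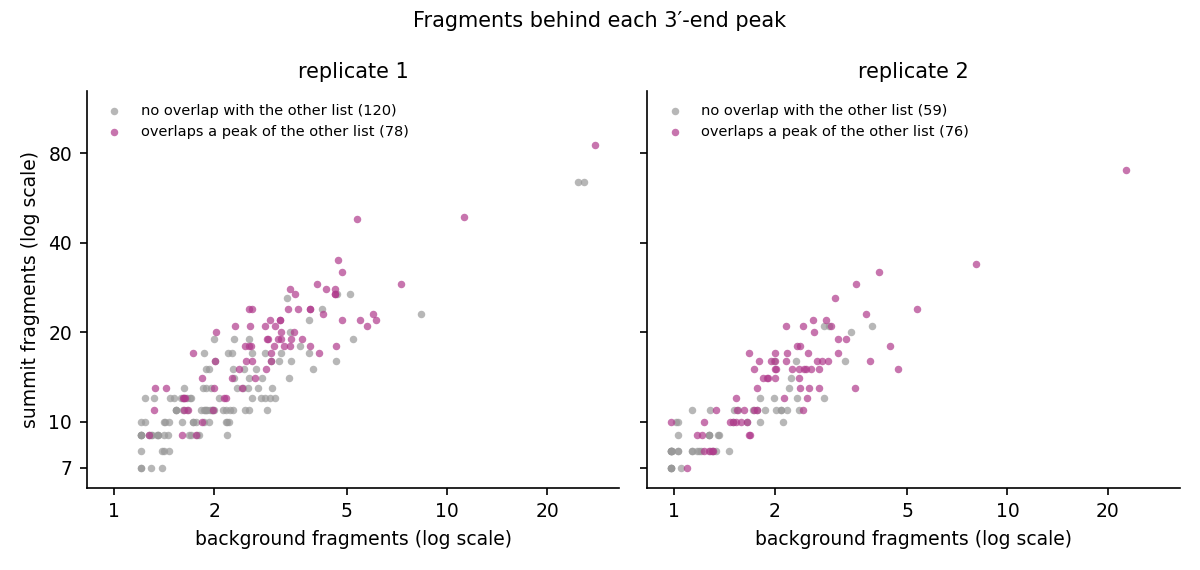
Each point is a 3′-end peak, placed by its background and summit fragments (both axes logarithmic) and coloured by whether it overlapped a peak of the other list. Most peaks without a counterpart lie at the lower left, in replicate 1 at a median of 11.5 fragments, and in replicate 1 a pair of them stands at 64 fragments on a background of 24.8 and 25.7.

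3′-end peaks had a lower median fold than the lists as a whole, a difference given without a test. It was 4.49 in replicate 1 (quartiles 3.87 and 5.02) and 4.45 in replicate 2 (4.04 and 5.13), against 4.98 and 5.0 over all peaks. The median 3′-end peak rested on 13 fragments in replicate 1 and 11 in replicate 2, so the height of a single one is loosely known. Their median fold lay close to those of exon peaks (4.53 and 4.57), intron peaks (4.37 and 4.39) and distal intergenic peaks (4.53 and 4.55). 3′ UTR and Downstream peaks had medians of 4.49 and 4.50 in replicate 1 and 4.45 and 4.49 in replicate 2. Peaks that overlapped one of the other list had median folds of 4.90 and 4.62, and those that did not, 4.22 and 4.35. Their median fragments were 19 and 15 against 11.5 and 10.

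Of the 263 regions, 70 held a 3′-end peak in both lists, 14 held one in 1 list and a peak of another class in the other, and 179 were found in 1 list only, 120 in replicate 1 and 59 in replicate 2. In the 70, the annotation was the same in both lists in 67. The summits lay a median of 98.5 bp apart (quartiles 31.75 and 196.5), at most 549 bp, and within 200 bp in 53 regions. The ratio of the fold in replicate 1 to that in replicate 2 had a median of 1.05 (range 0.692 to 1.52), and it was above 1 in 41 regions. SKOR1, a SKI family corepressor, was among those higher in replicate 1, with 6.17 on 21 fragments and 4.14 on 12. XIRP1, an actin-binding protein of striated muscle, stood on the other side, with 4.98 on 27 and 6.45 on 32. In all 70 regions the Poisson intervals of the summit fragments overlapped between the libraries. The regions had to pass in both lists, the intervals of such low counts are wide and depth is not given. This overlap therefore says little about agreement. Across the regions the folds correlated with Pearson's r of 0.556 and Spearman's rho of 0.454, as a description over regions that had to pass in both lists.

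**Figure D4:**
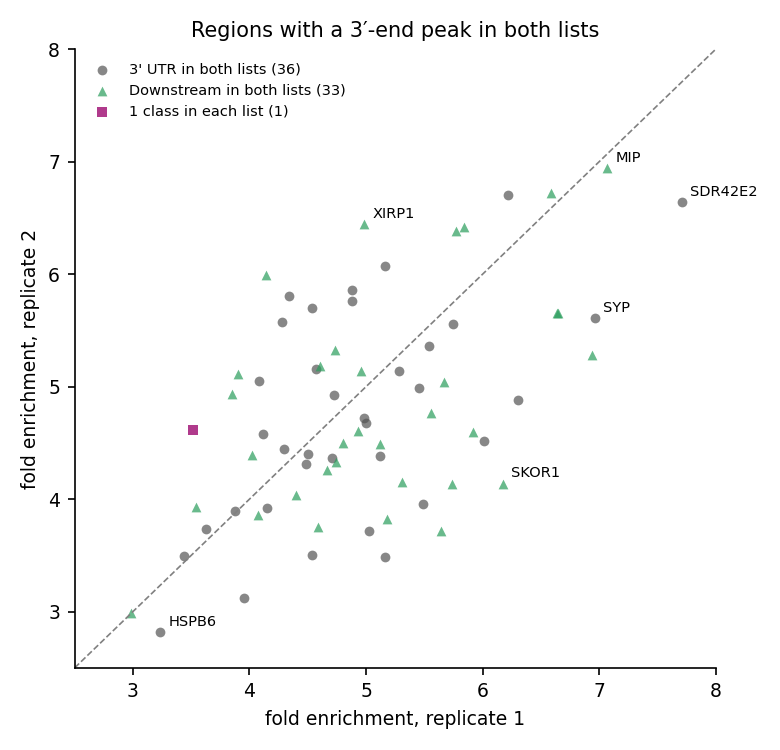
The fold enrichment of replicate 2 is plotted against that of replicate 1 for the 70 regions with a 3′-end peak in both lists, by annotation class; the dashed line marks equal folds. The points lie on both sides of the line, 41 of 70 below it, with SDR42E2 and MIP at the upper end and HSPB6 at the lower.

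Other regions present in both lists lay at genes of varied function. HPD, an enzyme of tyrosine breakdown, had a 3′ UTR peak 22 and 32 bp before its end with folds of 5.16 and 6.07. LAT, the linker for T cell activation, had 5.28 and 5.14 in its 3′ UTR. UNC13A, which primes synaptic vesicles, had 5.45 and 4.99. GDF15, a stress-induced ligand of the TGF-beta family, had 4.54 and 5.70. CENPM, a centromere protein, had 4.57 and 5.16. These 5 genes were chosen after their values were seen. Among the solute carriers, SLC52A3, a riboflavin transporter, had 6.01 on 13 fragments and 4.52 on 9. SLC28A2, a nucleoside transporter, had 4.95 and 5.14 on 12 fragments each. Past the end of ZNF19, next to ZNF23, a Downstream peak had 4.40 on 9 fragments and 4.04 on 8.

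The strongest regions found in 1 list only were mostly of replicate 1. MVB12B, an ESCRT-I subunit, had a 3′ UTR peak there with a fold of 6.67 on 19 fragments. SYNGR1, a synaptic vesicle protein, had 6.28 on 17, at 1400 bp past the end. PLEKHH3 had 6.07 on 19, at 178 bp, and AK8, an adenylate kinase, 5.82 on 12. Of the 6 strongest regions in 1 list only, the exception was GLTPD2, found in replicate 2. Fold above 6 in at least 1 list was seen in 20 regions, of which 15 had a 3′-end peak in both. Of all 263 regions, 70 had one in both. A region in both lists could pass that fold in either of them, so the 2 shares are not on equal terms.

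Among the genes of the testis lists, 1 had an end within 3 kb of a 3′-end peak. Over all protein-coding genes with a symbol the share was 1.25%. At that rate lists this short cannot show a depletion, and a difference from that share was not tested. No end of the 30 genes of undifferentiated spermatogonia lay within 3 kb of a 3′-end peak, nor of the 13 of differentiating spermatogonia, the 24 of meiosis, the 23 of spermatids, the 14 of Sertoli cells, the 9 of Leydig cells or the 11 of immune cells. Of the 17 genes of peritubular, stromal and vascular cells there was 1, COL1A1, a chain of type I collagen. Its Downstream peak in replicate 1 had a fold of 3.70 on 9 fragments and no counterpart in replicate 2. There was none among 39 cell cycle genes, 32 of mTORC1 signalling, 68 chromatin regulators, 169 ribosomal proteins, 138 ubiquitin genes and 13 olfactory and taste receptors. There were 7 of 361 solute carriers, 6 of 332 zinc finger genes and 1 of 110 RAB and TBC1D genes, TBC1D2B, with a fold of 3.21 in replicate 1. Over the 16286 protein-coding genes with a symbol, 204 (1.25%) had an end within 3 kb of a 3′-end peak counted in the same way, whether or not another gene's end was nearer, and at that rate a list of 30 genes would most often hold none.

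In 169 of the protein-coding genes the end within 3 kb was also the end nearest to the summit, and of these 23 (13.6%) also had a promoter peak in both libraries, against 3412 of all 16286 (21.0%). These 169 genes had a median span of 18.6 kb, and all protein-coding genes 25.6 kb. These values are a description, since the 2 sets differ in length and in how close their neighbours lie.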

How the data were processed

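CUT&Tag peak lists of ZBTB16, 1 per library, were used as deposited. Per the submitters' processing notes the build was Sscrofa11.1. The lists passed through an aligner, a peak caller and annotation software (not given in the sources used here). Per the file headers, the authors give each peak a summit, a fold enrichment (a ratio over background), −log10 p-values and −log10 q-values, a score (not used), a class, and the gene with the nearest start. The smallest −log10 q-value was 1.31 in either list. Sequencing depth is not given. Summit and background fragments were recovered from fold and p-value, as fold = (fragments + 1)/(background + 1) with a Poisson tail, within a relative 1e-05 for 99.9% of all peaks and 100% of 3′-end peaks. On 369 simulated peaks, 100% were recovered. Chromosomes 19 and 20 of the files are X and Y.

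Gene ends came from the transcripts in the files and from the RefSeq gene table for Sscrofa11.1, which has no strand. A gene edge nearer than the assigned start was taken as an end. All 171 edges of known strand that met this were ends. For 17 peaks a nearby gene's strand stayed unknown. Overlap meant 1 bp or more. Shares have 95% Wilson intervals and counts exact Poisson intervals. Recurrence was compared by 4 two-sided Fisher's exact tests with Benjamini-Hochberg adjustment at 0.05. Named are the 12 strongest regions in both lists by the lower of the percentile ranks of fold, the 8 strongest without another start within 1 kb, the 6 strongest in 1 list only, those with another start within 1 kb, and up to 3 per gene list. All other genes, such as RELA, SKOR1, XIRP1 and PLEKHA5, were named after their values were seen. Lists were written from general knowledge or gene name prefixes. The peaks and lists were chosen with earlier results of these data known. No sequence is shown and a motif search was not run. Computing used scipy 1.17.1, numpy 2.4.6 and pandas 2.3.3 under Python 3.11.15, and matplotlib 3.10.9 for plots.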

Additional observations from a re-analysis of the deposited data

How the results depend on the processing

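Of 55 alternative values, 41 kept their direction and stayed on their side of the threshold or within the interval of the main value, and none turned. The comparison by another gene's start mostly rested on 3 or fewer such peaks in a library. Its values could hardly change sides, so the tally says little about it. Overlap of 50% of both peaks lowered the shares that overlapped the other list to 31.3% and 43.7%. Exon, intron and distal intergenic peaks then had 21.4% and 36.2%. With lists of equal length, replicate 1 being cut to its strongest peaks, the 3′-end shares became 52.9% and 40.7%. The other classes had 35.3% and 34.2% at that setting. Shares over all peaks are not given for these settings. The share with another gene's start within 1 kb is limited by the classes. From 1.80% it became 0.601% within 500 bp, 4.80% within 3 kb and 0.730% for Downstream peaks alone. It ranged from 1.52% to 2.22% with 1 library left out. With a start within 3 kb, peaks of replicate 1 with such a start overlapped more often, by 40.2 percentage points (7 of 9 against 71 of 189, Fisher's exact adjusted p = 0.0402). In replicate 2 this did not pass (6 of 7 against 70 of 128, Fisher's exact adjusted p = 0.136). The odds ratio against exon, intron and distal intergenic peaks in replicate 2 no longer passed at −log10 q of at least 2 (1.29), with 50% overlap (1.37), with equal lengths (1.32), or for 3′ UTR (1.30) or Downstream peaks (1.91) alone, with adjusted p from 0.0546 to 0.268. In replicate 1 it no longer passed for 3′ UTR peaks alone (1.52). The cause was not tested. With 1 library left out, the median distance from the end ranged from 204 to 221 bp and the median fold from 4.45 to 4.49. Overlap needs both libraries and has no such value. No paired analysis was possible because there was 1 group. Few fragments per peak limit what a missing counterpart can show.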
